A study of Mus musculus with 4 samples.

Results

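Expression of 10 genes of neutrophil granules and the neutrophil surface was followed in liver RNA from a mouse model of acute-on-chronic liver failure (ACLF), the sudden failure of a liver that was already diseased. The genes were S100a8, S100a9, Ltf, Lcn2, Ngp, Camp, Csf3r, Mmp8, Mmp9 and Retnlg, taken by their names in the deposited table, and all 10 of 10 were found among its 21959 gene IDs. Both groups were wild-type (WT) mice with ACLF, and 2 livers came from mice given baicalein, a flavone of Scutellaria baicalensis root, and 2 from mice given saline. The labels give no dose, time, age or sex, and do not say that each liver came from its own animal, so p-values measure the spread between these livers, which may be technical in part. No liver without ACLF was analysed here.

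Neutrophils are short-lived white cells that leave the bone marrow and enter injured tissue, and they carry antimicrobial proteins in preformed granules. Granule types are filled one after another as the cell matures: azurophil granules first (myeloperoxidase, elastase), then specific granules (lactoferrin, cathelicidin, Ngp, Lcn2, Mmp8), then gelatinase granules (Mmp9). The messages for the specific granule proteins are made in marrow precursors and decline before the cell is released, whereas mature cells keep abundant S100a8 and S100a9 message. Members of the C/EBP family of transcription factors, C/EBP epsilon among them, act on specific granule genes in maturing granulocytes.

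The 4 promoter stretches below belong to the specific granule genes whose 2 groups of livers did not overlap and which had enough counts to be tested (Ltf, Lcn2 and Ngp) and, beside them, to S100a8, whose groups overlapped. Each is the 250 bases before the RefSeq start site in GRCm38.p6, 5′ to 3′ on the strand of the gene, and capitals mark matches to the C/EBP letters TTNNGNAA on either strand. The stretches are chr9:111019042-111019291 (plus strand) for Ltf, chr2:32387740-32387989 (minus strand) for Lcn2, chr9:110419558-110419807 (plus strand) for Ngp and chr3:90668821-90669070 (plus strand) for S100a8.
Ltf: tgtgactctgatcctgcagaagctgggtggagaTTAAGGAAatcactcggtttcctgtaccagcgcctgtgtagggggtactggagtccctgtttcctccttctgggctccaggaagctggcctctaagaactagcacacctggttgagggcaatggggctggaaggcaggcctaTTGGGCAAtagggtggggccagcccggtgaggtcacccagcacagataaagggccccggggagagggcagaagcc
Lcn2: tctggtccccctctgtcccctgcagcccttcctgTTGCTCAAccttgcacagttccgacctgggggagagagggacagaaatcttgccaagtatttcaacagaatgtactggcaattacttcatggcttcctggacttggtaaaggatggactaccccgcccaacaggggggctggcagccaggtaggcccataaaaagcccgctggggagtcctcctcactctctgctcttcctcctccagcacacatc
Ngp: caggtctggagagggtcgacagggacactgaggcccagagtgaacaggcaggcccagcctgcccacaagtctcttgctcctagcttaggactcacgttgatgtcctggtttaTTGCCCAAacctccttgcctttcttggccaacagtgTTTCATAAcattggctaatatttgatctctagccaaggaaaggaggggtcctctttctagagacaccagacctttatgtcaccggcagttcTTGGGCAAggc
S100a8: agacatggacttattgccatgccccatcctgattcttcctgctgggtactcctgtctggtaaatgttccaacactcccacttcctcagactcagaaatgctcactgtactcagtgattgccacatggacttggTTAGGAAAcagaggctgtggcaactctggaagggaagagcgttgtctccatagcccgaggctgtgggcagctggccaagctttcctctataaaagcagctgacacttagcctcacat
RefSeq gave such a stretch for 9 of the 10 genes. The C/EBP letters occurred in 7 of these 9, and in 36.8% of all 32851 promoter stretches of that length. Ngp held 3 matches, Ltf, Mmp8 and S100a9 held 2 each, and Lcn2, S100a8 and Retnlg held 1 each. The letters GAGGAAG, the core bound by the myeloid factor PU.1, were found on either strand in 4 of 9 (Lcn2, Mmp8, S100a8 and Csf3r) and in 10.6% of all stretches. The NF-kB letters, GGGA and CC with any 4 bases between them, were found on either strand in 1 of 9 (Csf3r) and in 17.6% of all stretches. Matches to different motifs did not overlap in these promoters. A match describes the letters of the reference genome, and no binding was measured here.

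**Figure D1:**
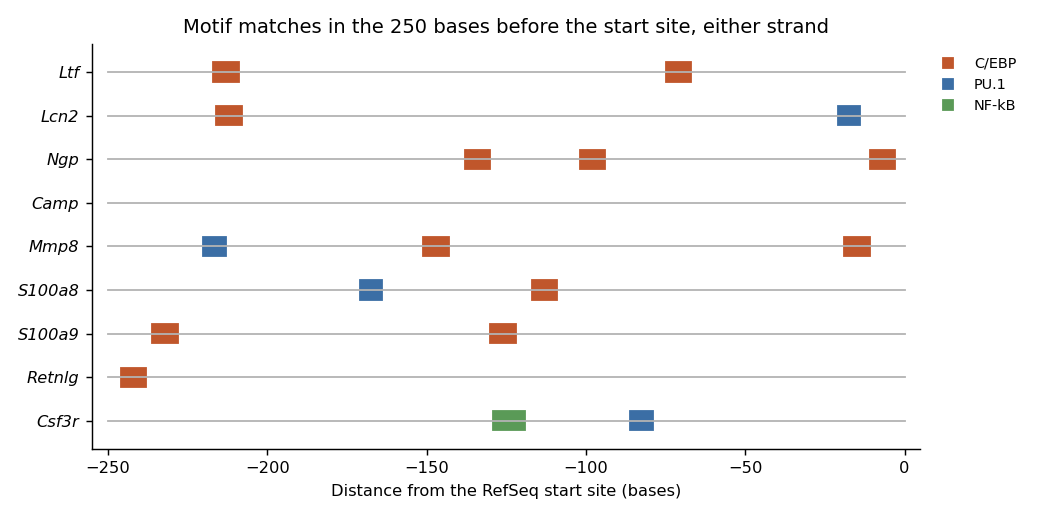
Matches to the C/EBP, PU.1 and NF-kB letters in the 250 bases before the start site of the 9 genes with a RefSeq promoter; the horizontal axis is the distance from the start site in bases and each block is 1 match on either strand. Ngp has 3 C/EBP matches and Camp has no match to any of the 3 motifs.

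The deposited counts summed to 14766061 and 18731616 in baicalein 1 and 2, and to 17673137 and 13976440 in saline 1 and 2. Hepatocyte markers (Alb, Apoa1, Cps1 and others) were abundant in every liver. Of 6 skeletal muscle markers, the summed count was 11 in baicalein 1 and 23628 in baicalein 2, against 78890 in saline 1 and 17 in saline 2, so 1 liver of each group held muscle message. Of 4 Y-linked genes, the summed count was 2 in baicalein 1 and 1 in baicalein 2, against 820 in saline 1 and 836 in saline 2. In every comparison below, treatment and this Y-linked pattern cannot be told apart. Of 12657 genes that had enough counts to be tested with edgeR's quasi-likelihood test, 7.65% were called higher and 7.90% lower with baicalein at an adjusted p under 0.05.

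Baicalein livers held more message of 2 specific granule genes, Ltf and Lcn2, than saline livers, while S100a8 and S100a9, both abundant in mature neutrophils, had overlapping groups. Of the 10 genes, 8 were tested, of which 2 were higher (Ltf and Lcn2) and 6 did not pass. Camp and Mmp8 had too few counts to be tested. Ltf and Ngp had enough counts to be tested in the baicalein livers alone, so the count of 2 among 8 cannot be read as support beside the 7.65% of all tested genes called higher. The same holds for the median log2 fold change of the 8, 0.51, against 0.01 over all tested genes, and the 8 ran both ways, with Ngp at 4.52 and Retnlg at -0.89. All 10 were weakly expressed in these livers: Lcn2, the highest, had a mean of 7.93 CPM (the count scaled by the normalised library size), and 34.4% of tested genes had a lower mean. In whole liver, a change in the number of neutrophils and a change in RNA per neutrophil cannot be told apart.

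**Figure D2:**
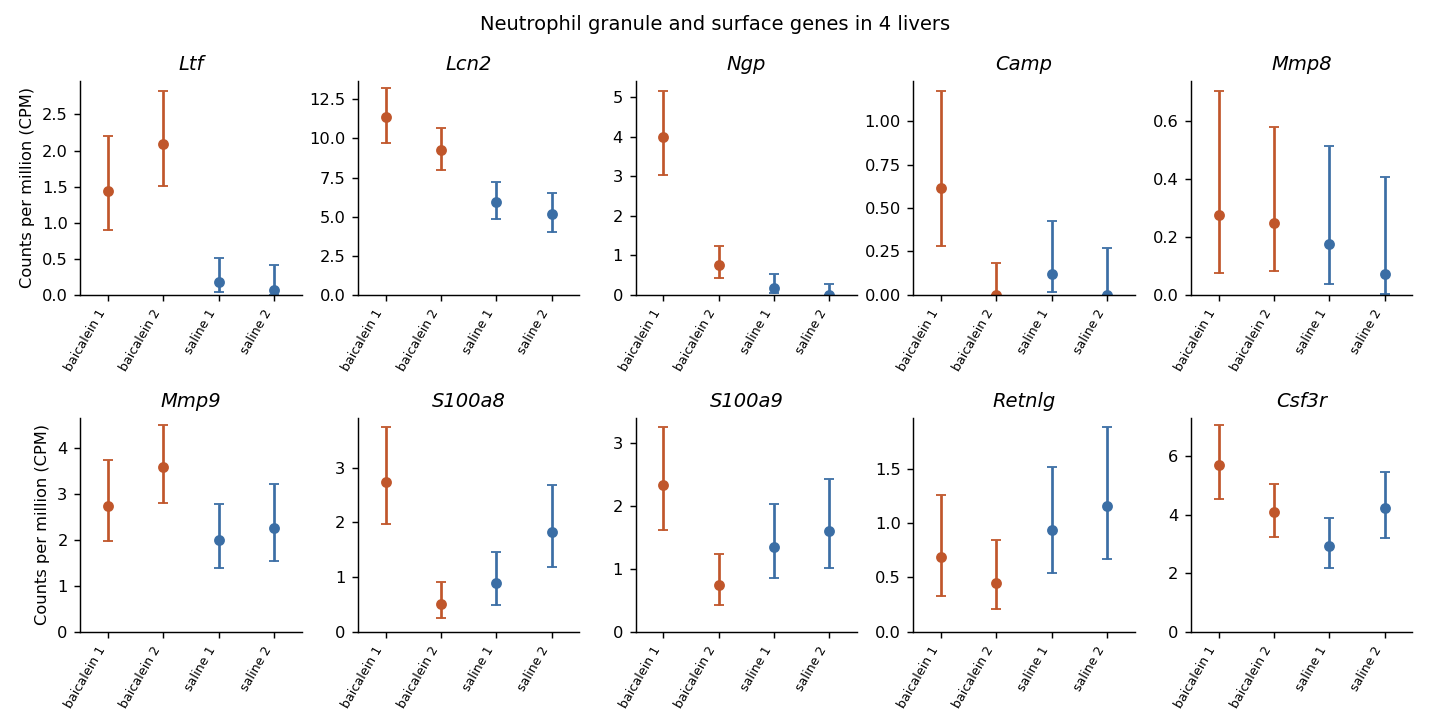
CPM (vertical axis, linear, a separate scale for each gene) of the 10 genes in baicalein 1, baicalein 2, saline 1 and saline 2; points are single livers and bars are exact 95% Poisson intervals of the count, which cover counting error only. Both baicalein livers sit above both saline livers for Ltf, Lcn2, Ngp, Mmp8 and Mmp9, and below them for Retnlg. Over all tested genes, 29.5% had both above and 29.6% had both below. Mmp8 was not tested, and Ltf and Ngp had enough counts to be tested in the baicalein livers alone.

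Gene positions below are those of the deposited table. The sources used here do not settle their build: the submitters' processing notes name mm10, and the table's start of Ltf is not that of GRCm38.p6, so these positions are not on the coordinates of the promoters above. Ltf (ENSMUSG00000032496, chromosome 9, 110848339 to 110871835, plus strand) encodes lactoferrin, the iron-binding protein of specific granules. It had 21 counts in baicalein 1 and 42 in baicalein 2, against 3 in saline 1 and 1 in saline 2. In CPM these were 1.44 and 2.09 with baicalein, against 0.176 and 0.0729 with saline. The lower baicalein liver stood well above the higher saline liver. Of all tested genes, 29.5% had both baicalein livers above both saline livers. The mean was 1.77 ± 0.456 CPM with baicalein and 0.125 ± 0.0731 CPM with saline (SD, n = 2 each). Ltf was called higher, with a log2 fold change of 3.71 (SE 0.69, edgeR quasi-likelihood test, adjusted p = 0.00760). It had enough counts to be tested in the baicalein livers alone, so this p-value cannot be read as support for the rise. Both saline livers were at or below the floor of 3 counts, so the size of the fold is uncertain. Summed over livers the CPM ratio was 14.0, with an exact 95% counting interval of 5.19 to 52.8. The call was lost when saline 1, saline 2 or baicalein 2 was left out, with an adjusted p of up to 0.124, and held without baicalein 1. Within the livers low in muscle message (baicalein 1 over saline 2) the log2 ratio was 4.31, and within those high in it (baicalein 2 over saline 1) it was 3.57. These ratios rest on 1 count in saline 2 and 3 in saline 1. Both had to be positive, since both baicalein livers lay above both saline livers, so they are no check on the part of muscle message.

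Lcn2 (ENSMUSG00000026822, chromosome 2, 32274645 to 32278264, minus strand) encodes lipocalin 2, which withholds bacterial iron-carrying siderophores, and injured hepatocytes also make it. It had 165 and 186 counts in baicalein 1 and 2, against 101 and 71 in saline 1 and 2. These were 11.3 and 9.25 CPM with baicalein, against 5.93 and 5.18 CPM with saline, with no overlap. Both baicalein livers were above both saline livers in 29.5% of all tested genes. Lcn2 averaged 10.3 ± 1.48 CPM with baicalein and 5.55 ± 0.536 CPM with saline (SD, n = 2 each), a rise of 0.89 on the log2 scale (SE 0.20, edgeR quasi-likelihood test, adjusted p = 0.0184). The call was lost without saline 1, saline 2 or baicalein 1, with an adjusted p of up to 0.153, and with limma-voom (adjusted p = 0.0572). The log2 ratio was 1.13 within the livers low in muscle message and 0.64 within those high in it. As the groups did not overlap, both ratios had to be positive, so they are no check on the part of muscle message.

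Ngp (ENSMUSG00000032484, chromosome 9, 110248815 to 110252080, plus strand) encodes neutrophilic granule protein, a relative of the cathelicidins. It had 58 counts in baicalein 1 and 15 in baicalein 2, against 3 in saline 1 and none in saline 2. The levels were 3.99 and 0.746 CPM with baicalein, against 0.176 CPM in saline 1 and 0 in saline 2, where the exact 95% interval of a count of 0 reaches 0.269 CPM. Both baicalein livers lay above both saline livers, a position shared by 29.5% of all tested genes. Yet the baicalein livers were far apart, baicalein 1 being 5.35-fold higher than baicalein 2 (95% counting interval 2.99 to 10.2). Ngp had enough counts to be tested in the baicalein livers alone. The log2 fold change of 4.52 (SE 1.40) did not pass (edgeR quasi-likelihood test, adjusted p = 0.117). It did pass without baicalein 2 (adjusted p = 0.0361) and with DESeq2 (adjusted p = 0.00901). Over summed counts, 73 with baicalein and 3 with saline, the CPM ratio was 21.6 (95% counting interval 7.10 to 107).

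Camp (ENSMUSG00000038357, chromosome 9, 109676447 to 109678685, minus strand) encodes cathelicidin, an antimicrobial peptide precursor, and lies 570129 bases from Ngp in the deposited table. It had 9 counts in baicalein 1 and none in baicalein 2, against 2 in saline 1 and none in saline 2. The counts lay in 1 liver of each group, and the ratio of summed CPM, 3.99, had a counting interval of 0.826 to 38.0, so no difference was detectable at this depth. Mmp8 (ENSMUSG00000005800, chromosome 9, 7558457 to 7568486, plus strand), the collagenase of specific granules, had 4 and 5 counts with baicalein, against 3 and 1 with saline. The counting interval of its ratio, 0.557 to 8.87, includes 1, so again no difference was detectable.

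Mmp9 (ENSMUSG00000017737, chromosome 2, 164782700 to 164797770, plus strand) encodes gelatinase B, the enzyme that names the gelatinase granules and that macrophages also make. It had 40 and 72 counts with baicalein, against 34 and 31 with saline, or 2.75 and 3.58 CPM against 1.998 and 2.26 CPM. Both baicalein livers were above both saline livers, as was true of 29.5% of all tested genes. The log2 fold change of 0.58 (SE 0.35) did not pass (edgeR quasi-likelihood test, adjusted p = 0.317).

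S100a8 (ENSMUSG00000056054, chromosome 3, 90576285 to 90577342, plus strand) and S100a9 (ENSMUSG00000056071, chromosome 3, 90599939 to 90603028, minus strand) encode the 2 subunits of calprotectin, a calcium- and zinc-binding protein of the neutrophil cytosol, and lie 22596 bases apart in the deposited table. S100a8 had 40 counts in baicalein 1 and 10 in baicalein 2, against 15 in saline 1 and 25 in saline 2. The baicalein livers were the highest and the lowest of the 4, at 2.75 and 0.497 CPM, and the saline livers lay between them at 0.881 and 1.82 CPM. S100a9 was arranged alike, with 2.34 and 0.746 CPM in baicalein 1 and 2, against 1.35 and 1.60 CPM in saline 1 and 2. The log2 fold changes were 0.25 (SE 0.88) for S100a8 and 0.05 (SE 0.58) for S100a9, and neither passed (edgeR quasi-likelihood test, adjusted p = 0.897 and 0.970). Without baicalein 1 the log2 fold changes were -1.43 and -0.98, and without baicalein 2 they were 1.03 and 0.66. Without saline 1 they were -0.18 and -0.071, and without saline 2 they were 0.86 and 0.18, so neither sign was stable. Within the livers low in muscle message the log2 ratios were 0.59 for S100a8 and 0.54 for S100a9, and within those high in it they were -0.83 and -0.86.

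Retnlg (ENSMUSG00000022651, chromosome 16, 48692984 to 48694859, plus strand) encodes a resistin-like secreted protein of mouse granulocytes. It had 10 and 9 counts with baicalein, against 16 in each saline liver. It was the 1 member with both baicalein livers, at 0.687 and 0.447 CPM, below both saline livers, at 0.940 and 1.17 CPM, a position shared by 29.6% of all tested genes. The log2 fold change was -0.89 (SE 0.60) and did not pass (edgeR quasi-likelihood test, adjusted p = 0.368).

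Csf3r (ENSMUSG00000028859, chromosome 4, 125918343 to 125938233, plus strand) encodes the receptor of granulocyte colony-stimulating factor, which drives granulocyte output from marrow. It had 83 and 82 counts with baicalein, against 50 and 58 with saline. In CPM the groups overlapped, with 5.71 and 4.08 in baicalein 1 and 2, against 2.94 and 4.23 in saline 1 and 2. In the deposited FPKM, which are scaled by the plain library total, they did not, at 1.56 and 1.21 with baicalein, against 0.784 and 1.15 with saline. The log2 fold change of 0.45 (SE 0.31) did not pass (edgeR quasi-likelihood test, adjusted p = 0.387).

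**Figure D3:**
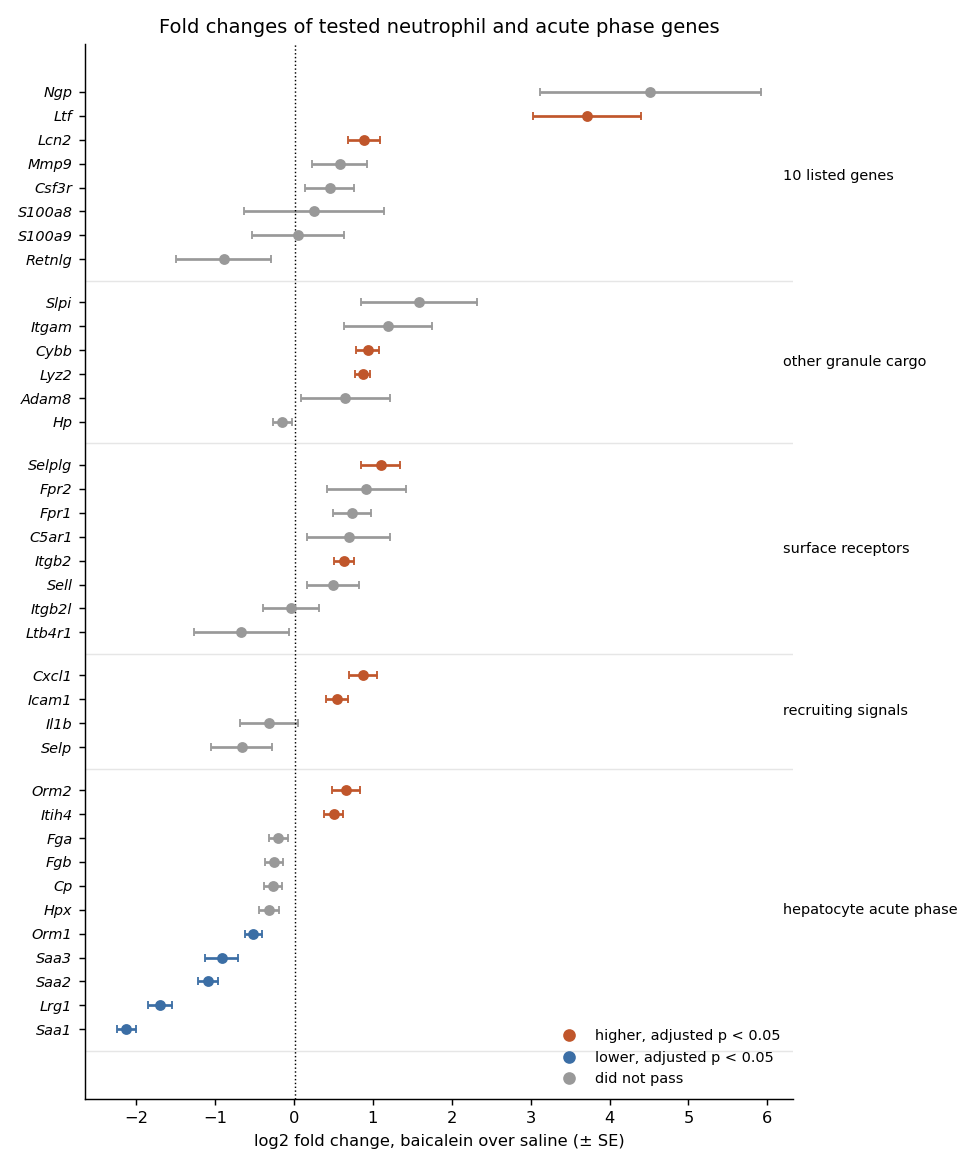
Log2 fold change of baicalein over saline (horizontal axis) with its SE for the tested members and for tested genes of 4 other lists; orange points passed as higher, blue points passed as lower, grey points did not pass, and the dotted line is the median of all tested genes, and Hp, which is also an acute phase gene, is drawn once among granule cargo. Ltf and Lcn2 are the members that passed, and Saa1 and Lrg1 are the lowest of the acute phase genes.

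Levels of different genes were compared per length, in FPKM. With baicalein Lcn2 had the highest mean of the 10 at 4.02 ± 0.336 FPKM, followed by S100a9 at 2.97 ± 2.03, S100a8 at 2.34 ± 2.22 and Ngp at 1.94 ± 1.81 FPKM (SD, n = 2). The SDs of S100a9, S100a8 and Ngp were wider than the gaps from each to the gene ranked next to it, Lcn2 included, so the order of these 4 is not fixed by these livers. In baicalein 1 S100a9, at 4.41 FPKM, stood above Lcn2, at 4.26 FPKM. With saline S100a9 led at 2.75 ± 0.369 FPKM, with Lcn2 at 2.06 ± 0.171, S100a8 at 1.90 ± 0.958 and Retnlg at 1.73 ± 0.286 FPKM (SD, n = 2). The gaps between Lcn2, S100a8 and Retnlg were smaller than the SD of S100a8. By its mean Ngp ranked 4 of 10 with baicalein and 8 of 10 with saline. The first of these ranks rests on baicalein 1, since Ngp was at 3.21 FPKM there and at 0.655 FPKM in baicalein 2. In baicalein 2 Lcn2, S100a9, Csf3r, Mmp9, Retnlg and S100a8 were all higher than Ngp. Ltf was at 0.531 ± 0.168 FPKM with baicalein and 0.0350 ± 0.0201 FPKM with saline, ranks 8 and 10.

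The make-up of the reads of these genes also differed between livers, and which cells gave the reads was not tested. Reads of Ltf, Ngp, Camp and Mmp8 were set beside those of S100a8 and S100a9, leaving out Lcn2 because hepatocytes also make it. These 4 specific granule genes gave 92 of 166 such reads in baicalein 1 and 62 of 87 in baicalein 2, against 11 of 49 in saline 1 and 2 of 49 in saline 2. The shares were 55.4% (exact Clopper-Pearson 95% interval 47.5 to 63.1) and 71.3% (60.6 to 80.5) with baicalein, against 22.4% (11.8 to 36.6) and 4.08% (0.498 to 14.0) with saline. The groups did not overlap, and the intervals, which cover counting error only, did not overlap between groups either. An exact permutation test of 2 against 2 livers cannot give a two-sided p below 0.333, so no test was made of the share. This share is a description of the members, which were chosen with earlier results of these data known. Camp and Mmp8 had too few counts to be tested, and Ltf and Ngp had enough in the baicalein livers alone. The separation of the shares therefore cannot be read as support for a difference between the groups.

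**Figure D4:**
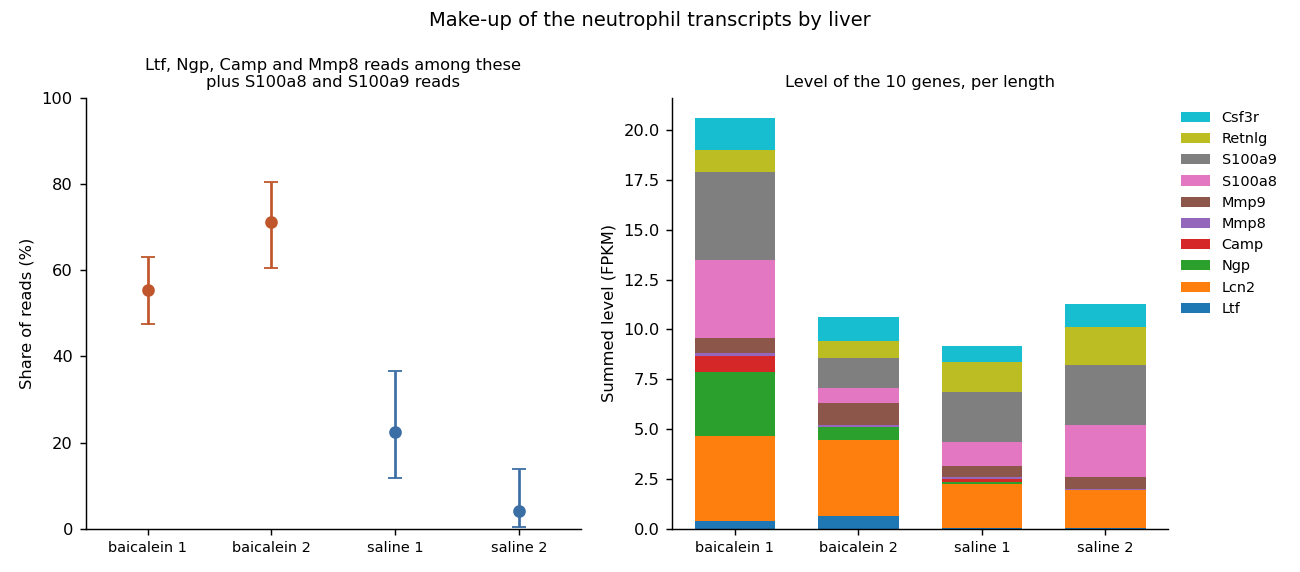
Left, share of reads (%) from Ltf, Ngp, Camp and Mmp8 among these plus S100a8 and S100a9, with exact 95% intervals; right, summed FPKM of the 10 genes, stacked by gene, in baicalein 1, baicalein 2, saline 1 and saline 2. The shares are 55.4% and 71.3% with baicalein, against 22.4% and 4.08% with saline, while the summed level is 20.6 and 10.6 FPKM with baicalein, against 9.16 and 11.3 FPKM with saline.

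The 2 baicalein livers differed in several of the 10 genes by more than counting error, which does not include the spread between animals or samples. Baicalein 2 was the one that held muscle message, and the part of this in the differences was not tested. The counting interval of the ratio of baicalein 1 to baicalein 2 lay above 1 for Ngp, Camp, S100a8, S100a9 and Csf3r. Over genes in general the 2 livers of each group also differed by more than counting error (chi-square per degree of freedom 18.7 with baicalein and 23.4 with saline). The share of all genes whose interval excludes 1 was not computed, so these differences cannot be called particular to the 10 genes. S100a8 was 5.53-fold higher in baicalein 1 than in baicalein 2 (interval 2.72 to 12.4) and S100a9 3.13-fold higher (1.66 to 6.19). Ltf and Mmp9 ran the other way, with ratios of 0.691 (0.389 to 1.19) and 0.768 (0.508 to 1.15), whose intervals include 1. Between the saline livers the interval excluded 1 for S100a8, at a ratio of saline 1 to saline 2 of 0.484 (0.237 to 0.954), and for no other member. The 10 genes summed to 31.9 CPM in baicalein 1 and 21.7 CPM in baicalein 2, against 14.7 and 16.4 CPM in saline 1 and 2. Without Lcn2 the sums were 20.5 and 12.4 CPM with baicalein, against 8.75 and 11.2 CPM with saline. The baicalein sums thus stayed above the saline sums, with baicalein 2 close to saline 2. In summed FPKM the groups overlapped, since baicalein 2 lay below saline 2.

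**Figure D5:**
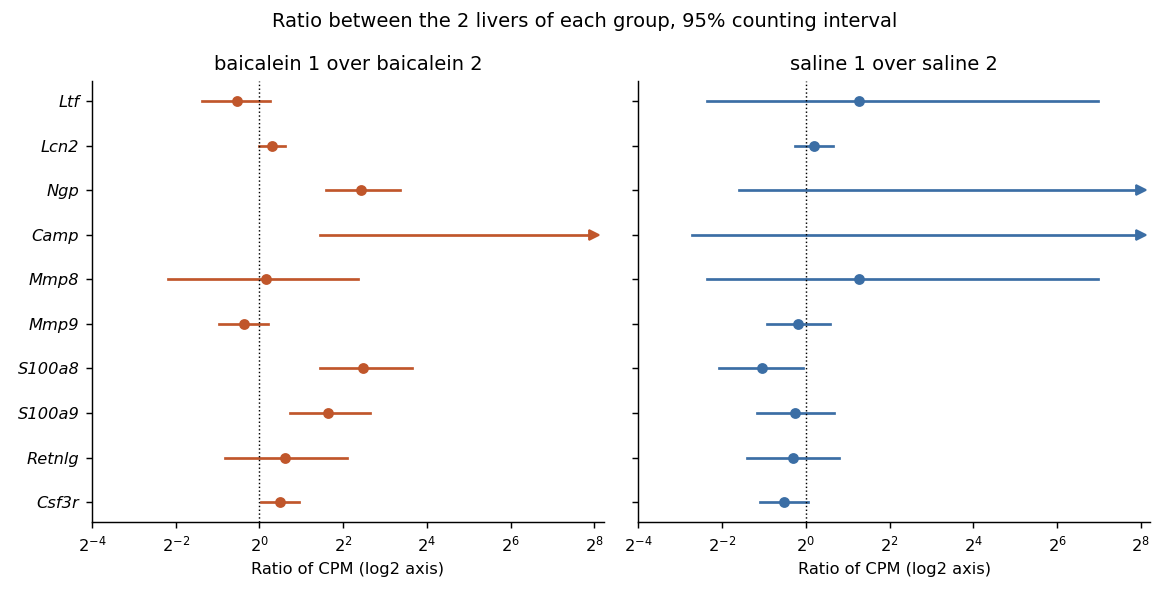
Ratio of CPM between the 2 livers of each group (horizontal axis, log2 scale) for the 10 genes with exact 95% counting intervals; arrows mark intervals without an upper end, where 1 liver had no count. For baicalein 1 over baicalein 2 the intervals of Ngp, Camp, S100a8, S100a9 and Csf3r lie above 1. The share of all genes with such an interval was not computed.

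Azurophil granule genes were nearly silent in both groups. Mpo (myeloperoxidase) had 7 and 3 counts with baicalein, against none in either saline liver, and Elane (neutrophil elastase) had 4 and 0 with baicalein, against 8 and 1 with saline. Prtn3 (proteinase 3) had 9 and 5 counts with baicalein, against 16 and 4 with saline. Ctsg (cathepsin G) had 3 and 0 counts and Ms4a3 had 1 and 1 with baicalein, against none with saline, and Prss57 had no count in any liver. All 6 genes of this list had too few counts to be tested, and their summed counts were 24 and 9 with baicalein, against 24 and 5 with saline.

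Of 12 other granule cargo genes, 6 were tested, of which 2 rose and 4 did not pass, with a median log2 fold change of 0.90. Over all tested genes 7.65% rose and the median was 0.01. Lyz2, encoding lysozyme, rose to 127 ± 3.92 CPM with baicalein, against 69.4 ± 2.91 CPM with saline (SD, n = 2 each; log2 fold change 0.87, SE 0.09, edgeR adjusted p = 5.61e-04). Cybb, the membrane subunit of the phagocyte oxidase, rose to 25.5 ± 1.97 CPM with baicalein, against 13.3 ± 1.97 CPM with saline (log2 fold change 0.93, SE 0.14, edgeR adjusted p = 0.00308). Slpi, a protease inhibitor gene, gave a log2 fold change of 1.58 (SE 0.73) that did not pass (edgeR adjusted p = 0.192). It had enough counts to be tested in the baicalein livers alone (14 and 13, against 4 in each saline liver), and the median includes it. Lyz2 and Cybb are shared with macrophages, and 6 of 6 Kupffer cell markers passed as higher with baicalein, beside 7.65% of all tested genes. The Kupffer cell markers summed to 666 and 572 CPM with baicalein, against 371 and 321 CPM with saline. The part of these cells in the rise of Lyz2 and Cybb was not tested. Olfm4, a marker of a subset of neutrophils in mouse, had no count in baicalein 1 and 95 in baicalein 2, against none in either saline liver. Pglyrp1, encoding a peptidoglycan-binding granule protein, had 4 counts in baicalein 1 and 62 in baicalein 2, against 0 in saline 1 and 1 in saline 2. These 2 genes were high in baicalein 2, the liver in which S100a8, S100a9 and Ngp were low relative to baicalein 1, and neither had enough counts in 2 livers to be tested. Baicalein 2 also held muscle message, and which cells gave the Olfm4 and Pglyrp1 reads was not tested. Of the other 4 untested cargo genes, Chil3 had 7 and 4 counts with baicalein, against 2 in each saline liver, and Mmp25 had 4 and 7 with baicalein, against 8 and 1 with saline. Cd177 had no count with baicalein, against 1 in each saline liver, and Fcnb had 1 and 0 with baicalein, against none with saline.

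Of 15 neutrophil surface receptors, 8 were tested, of which 2 rose and 6 did not pass, with a median log2 fold change of 0.66. Over all tested genes 7.65% rose and the median was 0.01. Itgb2, the beta chain of the leukocyte integrins, rose (log2 fold change 0.63, SE 0.12, edgeR adjusted p = 0.00964), as did Selplg, the P-selectin ligand (1.10, SE 0.25, edgeR adjusted p = 0.0201). Other leukocytes express both. Fpr1, the receptor of bacterial formyl peptides, was at 6.80 ± 0.687 CPM with baicalein and 4.09 ± 0.621 CPM with saline (SD, n = 2 each) and did not pass (edgeR adjusted p = 0.0789). The other 7 receptors had too few counts to be tested and ran both ways. Ly6g, the surface antigen used to mark mouse neutrophils, had 2 and 1 counts with baicalein, against none with saline, and Cxcr2, a chemokine receptor, had 5 and 4 counts with baicalein, against 4 and 3 with saline. Clec4d had no count with baicalein, against 5 and 3 with saline, and Clec4e had none with baicalein, against 2 and 0 with saline. Trem1 had no count with baicalein, against 1 in each saline liver. Il1r2 had 1 and 0 counts with baicalein, against 1 and 0 with saline, and Cxcr1 had no count in any liver.

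Of 13 signals that recruit neutrophils, 4 were tested, of which 2 rose and 2 did not pass, with a median log2 fold change of 0.11. Over all tested genes 7.65% rose and the median was 0.01. Cxcl1, a neutrophil-attracting chemokine, rose to 13.7 ± 1.67 CPM with baicalein, against 7.44 ± 0.939 CPM with saline (SD, n = 2 each; log2 fold change 0.87, SE 0.17, edgeR adjusted p = 0.0110). Icam1, the endothelial ligand of the leukocyte integrins, rose by 0.54 on the log2 scale (SE 0.14, edgeR adjusted p = 0.0302). Selp, encoding P-selectin, gave a log2 fold change of -0.66 (SE 0.39) and did not pass (edgeR adjusted p = 0.301). Cxcl2, another such chemokine, had 0 and 3 counts with baicalein, against 21 and 5 with saline. Csf3, the ligand of Csf3r, had 0 and 1 counts with baicalein, against none with saline. Il6 had no count with baicalein, against 3 and 1 with saline, and Tnf had 8 and 10 with baicalein, against 8 and 4 with saline. Cxcl5 had 1 and 3 counts with baicalein, against 4 and 1 with saline, and Sele had 2 and 1 with baicalein, against 4 and 3 with saline. Csf2, Cxcl3 and Il17a had no count in any liver. The calls of Icam1 and Selplg did not hold without each liver in turn, being lost in all 4 such fits.

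Of 6 granulocyte transcription factors, 5 were tested, of which Cebpb fell (log2 fold change -0.83, SE 0.16, edgeR adjusted p = 0.0139), a factor that hepatocytes and myeloid cells share, and 4 did not pass. Over all tested genes 7.90% fell. Spi1, encoding PU.1, was at 10.8 ± 1.88 CPM with baicalein and 8.33 ± 0.437 CPM with saline (SD, n = 2 each; edgeR adjusted p = 0.219). Cebpa, a factor of hepatocytes and granulocyte precursors, gave a log2 fold change of 0.15 (SE 0.12, edgeR adjusted p = 0.442). Cebpe, encoding C/EBP epsilon, had 69 and 76 counts with baicalein, against 86 and 75 with saline. Its log2 fold change of -0.30 (SE 0.26) did not pass (edgeR adjusted p = 0.489), and which cells gave its reads was not tested. Gfi1, a repressor needed for neutrophil development, had 3 and 13 counts with baicalein, against 2 and 1 with saline, and was not tested. Of 7 relatives of S100a8 in the S100 family, 6 were tested and did not pass in the edgeR fit with TMM and the count filter. S100a1, S100a10 and S100a16 had the smallest p, with log2 fold changes of -0.32, -0.32 and 0.28 and unadjusted p of 0.00852, 0.0172 and 0.105. S100a1 (adjusted p = 0.0530) lay near the threshold and passed as lower with DESeq2 (adjusted p = 0.0304) and in edgeR with no filter on low counts (adjusted p = 0.0435). S100a4 had no count in any liver. Of the receptors that bind S100a8 and S100a9, Tlr4 (log2 fold change 1.10, SE 0.68) and Bsg (-0.08, SE 0.11) did not pass (edgeR adjusted p = 0.344 and 0.684), and Ager had 5 and 3 counts with baicalein, against 4 and 1 with saline, too few to be tested.

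Because Lcn2 is also an acute phase gene of hepatocytes, 12 such genes were set beside it. All 12 were tested, of which 2 rose, 5 fell and 5 did not pass, with a median log2 fold change of -0.29. Over all tested genes 7.65% rose and 7.90% fell, with a median of 0.01. Saa1, encoding serum amyloid A, fell to 22.2 ± 0.914 CPM with baicalein, against 96.9 ± 13.1 CPM with saline (SD, n = 2 each; log2 fold change -2.13, SE 0.12, edgeR adjusted p = 9.89e-06). Lrg1 (log2 fold change -1.70, SE 0.15), Saa2 (-1.09, SE 0.12), Saa3 (-0.92, SE 0.21) and Orm1 (-0.52, SE 0.11) also fell. Orm2 (0.66, SE 0.18) and Itih4 (0.50, SE 0.12) rose, and so had the direction of Lcn2. Saa1 and Saa2, and Orm1 and Orm2, are close in sequence, and the sources used here do not say how shared reads were counted, so these values are uncertain. The calls of Saa1, Saa2, Lrg1, Lyz2 and Cybb held without each of the 4 livers in turn. Saa3 lost its call without each of them, and Orm1, Orm2, Itih4, Cebpb, Cxcl1 and Itgb2 lost theirs without at least 1 (adjusted p up to 0.334). Orm2 and Icam1 also lost their calls with DESeq2 and limma-voom, and Itih4 with limma-voom.

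Markers of other cell types were set beside the neutrophil genes, and these did not all run one way. Over all tested genes 7.65% passed as higher and 7.90% as lower. Of 4 eosinophil genes, Prg2, encoding the major granule protein of eosinophils, had 38 and 13 counts with baicalein, against none with saline. The mean of the baicalein livers, at 2.61 and 0.646 CPM, was at least 8.25-fold higher against 3 counts in each saline liver, and baicalein 1 carries most of that mean. The other genes of this list had too few counts to be tested. Siglecf had 6 and 25 counts with baicalein, against 1 in each saline liver, and Epx had 3 and 2, against none. Ccr3 had 13 and 6 counts with baicalein, against 4 and 8 with saline, and its groups overlapped. Prg2 had enough counts to be tested in the baicalein livers alone. It passed (edgeR adjusted p = 0.0296), but not when either saline liver was left out or with limma-voom (adjusted p = 0.0695). DESeq2 gave it no adjusted p, and without baicalein 1 it had too few counts to be tested. The 4 eosinophil genes summed to 4.12 and 2.29 CPM with baicalein, against 0.294 and 0.656 CPM with saline. Of 6 monocyte markers 5 were tested and 1, Plac8, passed as higher, with 223 and 521 counts with baicalein, against 103 and 96 with saline. Of 5 B cell markers 1 passed as higher, and they summed to 17.3 and 15.7 CPM with baicalein, against 5.99 and 5.91 CPM with saline. Of 6 red cell markers 5 were tested and 4 passed as lower, and they summed to 137 and 153 CPM with baicalein, against 918 and 658 CPM with saline. Of the 4 mast cell and basophil genes, Cpa3 had 0 and 12 counts with baicalein, against 2 and 0 with saline. Mcpt8, Ms4a2 and Fcer1a had no count in any liver. Whether blood or marrow-derived cells other than neutrophils contributed to the values of the 10 genes was not tested.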

How the data were processed

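RNA of 4 livers was sequenced, 2 per group. The deposited table holds, per the file headers, a read count and an FPKM value (the count scaled by gene length and library total) for each gene and liver, made by the authors; the genome build was mm10, per the submitters' processing notes, and the sources used here name no aligner, counter or strand setting. FPKM served to compare levels between genes, and all tests used the counts. Total counts were 13976440 to 18731616 per liver. Beside folds against a group at 0, a floor of 3 counts per liver was used, which equals 0.149 to 0.219 CPM.

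Counts were fitted in R 4.3.3 with edgeR 4.0.16 (TMM normalisation, filterByExpr with a minimum count of 10, robust quasi-likelihood test), which left 12657 genes of 21959, with Benjamini-Hochberg adjustment over all of them and a threshold of 0.05. SE is the absolute log2 fold change divided by the square root of F. CPM are counts scaled by the TMM-normalised library total. Intervals are exact 95% Poisson or Clopper-Pearson intervals, and cover counting error only. Alternatives were RLE size factors, DESeq2 1.42.0, limma 3.58.1 (voom), other filters, a replicate block and leaving out each liver.

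Livers were grouped by the labelled treatment. The 2 livers of each group differed by more than sampling noise (chi-square per degree of freedom 18.7 with baicalein and 23.4 with saline) and were kept apart. The members and gene lists were chosen with earlier results of these data known. From each list the text names every gene that passed and, where fewer than 3 did, those of smallest p up to 3. Genes with too few counts are given as counts. Cebpe is named beside these because the background names C/EBP epsilon. Markers of other cells that are named were chosen after their values were seen. Promoters are from the RefSeq table of GRCm38.p6.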

Additional observations from a re-analysis of the deposited data

How the results depend on the processing

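EdgeR with TMM called 968 genes higher and 1000 lower. Limma-voom called 632 higher and 705 lower, and fits without 1 liver, which tested other sets of genes, called 521 to 665 higher and 535 to 663 lower. No count of shared genes was made. The 2 neutrophil genes called higher became 1 with limma-voom (Ltf), 1 with a mean CPM of at least 1 (Lcn2; Ltf was then not tested), and 0 to 2 when 1 liver was left out: 0 without saline 1 or saline 2, 1 without baicalein 1 (Ltf) and 2 without baicalein 2 (Lcn2 and Ngp). Leaving out a liver leaves 1 in its group, which is assumed to vary like the others. With the replicate number as a block 531 genes were higher and 601 lower, and 1 neutrophil gene, Ngp (adjusted p = 0.0306), was higher. The labels do not say that the numbers pair the livers, and same-numbered deviations had a correlation of -0.742. A block of crossed pairs, chosen after seeing the data, gave 1809 genes higher, 1689 lower and 3 neutrophil genes higher. DESeq2 also called 3 (Ltf, Lcn2 and Ngp). No fit called a neutrophil gene lower.

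The sign reversed for S100a8 with limma-voom (-0.24), with the replicate block (-0.070), without saline 1 (-0.18) and without baicalein 1 (-1.43), its range over left-out livers being -1.43 to 1.03. It reversed for S100a9 with limma-voom (-0.27), the replicate block (-0.13), the crossed block (-0.094), without saline 1 (-0.071) and without baicalein 1 (-0.98), with a range over left-out livers of -0.98 to 0.66. It reversed for Bsg without baicalein 2, with a range of -0.19 to 0.014. S100a8, S100a9 and Bsg did not pass in any of these fits. Over all alternatives in which it was tested, Ltf had a log2 fold change of 3.27 to 4.46 (adjusted p 1.83e-05 to 0.124) and Lcn2 of 0.73 to 1.03 (5.07e-04 to 0.153). The causes of these changes were not tested. Counts of about 10 or below in a liver limit Camp, Mmp8, Ngp, the saline values of Ltf, the baicalein values of Retnlg, and S100a8 in baicalein 2.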
